A study of Caenorhabditis elegans with 4 samples.

Results

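Genes of glycolysis and of nuclear-encoded energy metabolism were examined for peaks of UNC-39, a SIX-family homeodomain transcription factor, in Caenorhabditis elegans. The set held 41 of the 19973 nuclear protein-coding genes, taken by name from a fixed list and located in the Ensembl annotation of WBcel235. It comprised 19 genes of glycolysis, 2 of gluconeogenesis, 6 assigned here to the citric acid cycle, 13 of the respiratory chain with its ATP synthase, and 1 mitochondrial ADP/ATP carrier. All samples were whole L3 larvae of mixed sex from strain OP186, in which the transgene wgIs186 supplies UNC-39 with a C-terminal GFP and FLAG tag in an unc-119(ed3) background. This is 1 transgenic line carrying an added, tagged copy of the gene, and the antibody entry of the labels reads unc-39. There were 4 biological replicates of 1 group, so no comparison between conditions was possible, and no control library was analysed here. In whole worms the tissue in which a site is occupied cannot be told from these peaks.

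Glycolysis converts glucose to pyruvate in the cytosol and yields a small amount of ATP, while gluconeogenesis runs several of the same steps in the opposite direction. The citric acid cycle oxidises acetyl-CoA in mitochondria and passes electrons to the respiratory chain. The chain pumps protons across the inner mitochondrial membrane, and ATP synthase uses the gradient to make ATP, which the ADP/ATP carrier exports. In C. elegans the larva builds up mitochondria as it grows, and muscle is one of the tissues with a high demand for ATP. UNC-39 is known for its role in mesoderm and in neuronal cell identity and migration.

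For each gene, the peak with the highest signal was taken among those whose summit lay from 2000 bp upstream to 200 bp downstream of any of its transcript starts, called here a promoter peak. Because signals cannot be set against each other across lists, each strongest promoter peak was given its percentile among all genes with a promoter peak in the same list, where 100 is the highest. The strongest promoter peak of a gene can lie at different places in different lists. The relaxed lists held 12773 nuclear peaks in the pooled list and 29976, 29980, 13195 and 29501 in replicates 1 to 4, and they include background by design. The lists of replicates 1 and 2 end at 30000 peaks, mitochondrial ones included. A promoter peak in a relaxed list is therefore a ranked place and not a call of binding. The replicate lists were also unlike in stringency. With the deposited q-value column read as −log10 of q, 107, 0, 13195 and 7724 nuclear peaks of replicates 1 to 4 had q below 0.05. In replicate 3 these were all of its nuclear peaks. The list thresholded for reproducibility between replicates held 86 nuclear peaks, and its calls are named reproducible peaks below.

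Promoter peaks were found at more of the energy genes than of the genome's genes in every list. In the pooled list 25 of the 41 genes (61.0%, exact 95% interval 44.5 to 75.8) had one, against 29.2% of all nuclear protein-coding genes. In replicates 1 to 4 the counts were 29, 29, 32 and 31 genes, or 70.7%, 70.7%, 78.0% and 75.6%. The same share over all genes was 53.1%, 53.8%, 31.4% and 54.5%, so the margin over the genome was widest in replicate 3, whose list was the shortest of the 4. Of the 41 genes, 14 (34.1%) had a promoter peak in every replicate list, against 10.7% of all genes, and cox-4 had none in any list. At the reproducible threshold only cyc-2.1 and cox-5A kept a promoter peak, which is 4.88% of the set (0.596 to 16.5) against 0.345% of all genes. Both belong to the respiratory chain. Intervals cover counting over genes only, and neighbouring genes can share a peak, so genes are not independent replicates.

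**Figure D1:**
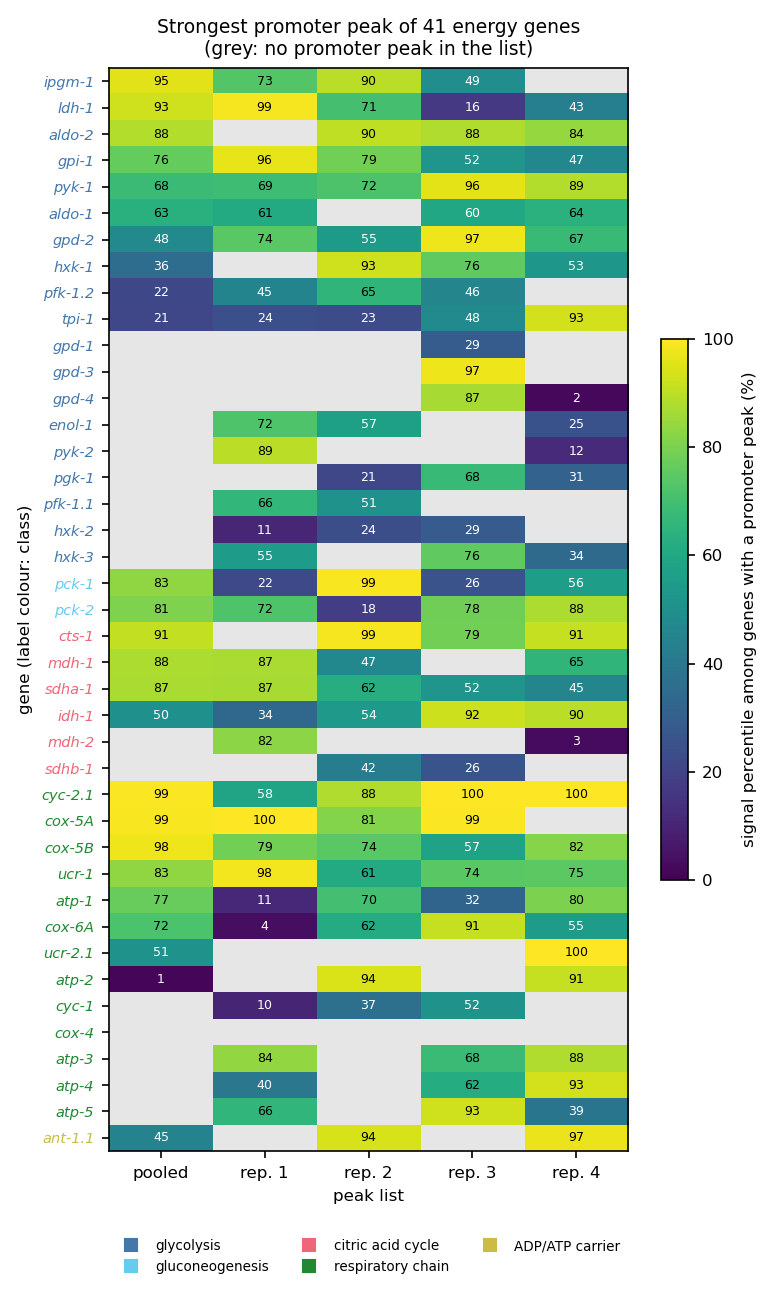
Percentile of the strongest promoter peak of each of the 41 genes (rows, label colour giving the class) in the pooled list and the 4 replicate lists (columns), with 100 the highest among all genes with a promoter peak in that list and grey where a list had none. cyc-2.1 and cox-5A sit at 99.5 and 99.2 in the pooled list, cox-4 is grey throughout, and most rows mix high and low values across the replicates.

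The 2 reproducible peaks, and peaks of 4 other genes at which all 4 replicate lists had an overlapping peak, are shown by their sequence. Each line gives 101 bases centred on the pooled summit, on the strand of the named gene, read from the WBcel235 genome. Capitals mark short sequences searched on either strand. They are TGATAC in cox-6A and CGTCTC in ldh-1. In idh-1 they are CGTCTC together with the reverse complement of ACGCAG, which share letters and form 1 run. The windows of cyc-2.1, cox-5A and sdha-1 hold no match to any of these, nor to TCAGGTTTC. They lie at chrIV:4750015-4750115 for cyc-2.1, chrIII:12905099-12905199 for cox-5A, chrII:11724499-11724599 for ldh-1, chrIV:9441165-9441265 for idh-1, chrX:8546221-8546321 for sdha-1 and chrIII:5080946-5081046 for cox-6A. All but that of ldh-1, which is intronic, lie between protein-coding genes.
cyc-2.1: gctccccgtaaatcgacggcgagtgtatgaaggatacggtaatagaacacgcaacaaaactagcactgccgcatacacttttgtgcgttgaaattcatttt
cox-5A: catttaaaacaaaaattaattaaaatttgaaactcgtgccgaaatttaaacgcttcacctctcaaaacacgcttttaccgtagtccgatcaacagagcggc
ldh-1: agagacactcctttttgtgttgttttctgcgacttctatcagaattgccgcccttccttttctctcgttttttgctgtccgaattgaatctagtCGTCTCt
idh-1: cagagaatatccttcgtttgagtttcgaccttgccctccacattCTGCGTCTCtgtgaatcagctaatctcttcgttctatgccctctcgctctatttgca
sdha-1: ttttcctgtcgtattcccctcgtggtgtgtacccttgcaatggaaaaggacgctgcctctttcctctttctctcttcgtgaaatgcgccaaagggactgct
cox-6A: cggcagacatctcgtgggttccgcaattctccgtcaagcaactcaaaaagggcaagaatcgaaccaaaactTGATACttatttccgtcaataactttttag

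Among the electron carriers and the terminal oxidase, cyc-2.1 and cox-5A had the strongest peaks of the set. cyc-2.1 encodes cytochrome c, which carries electrons from complex III to complex IV. Its promoter peak had a pooled signal of 50.8, rank 39 among nuclear pooled peaks, with its summit 1053 bp upstream of the gene. At that place replicate 3 had its peak of rank 19 and replicate 4 its peak of rank 13, while the overlapping peak of replicate 1 ranked 9613 and replicate 2 had none there. The strongest promoter peak of cyc-2.1 in replicate 2 lay elsewhere, 62 bp upstream of another of its transcript starts, with rank 2470. The 4 replicate percentiles of the gene were thus 58.2, 88.2, 99.7 and 99.9. Replicates 3 and 4 put the reproducible peak near the top of their lists, and replicates 1 and 2 did not. The summit is intergenic and 175 bp from the start of Y17G9B.5, which is nearer than cyc-2.1, and the start of rpl-20, a large ribosomal subunit protein gene, is also within 500 bp. The peak lies in the promoter windows of all 3 genes, and which of them it serves was not tested.

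cox-5A encodes a subunit of cytochrome c oxidase (complex IV), which passes electrons to oxygen. Its peak had a pooled signal of 46.3 and rank 58, with the summit 342 bp upstream of the start. The start of cox-5A is the nearest to the summit and no other protein-coding start lay within 500 bp. Overlapping peaks ranked 28 in replicate 1, 4014 in replicate 2 and 46 in replicate 3, and replicate 4 had none in the promoter. The corresponding percentiles were 99.8, 81.3 and 99.3. The replicates that placed this peak high were therefore 1 and 3, against 3 and 4 for cyc-2.1. The deposited q-value column, read as −log10 of q, gave q = 0.0560 for the peak of cyc-2.1 and 0.0552 for that of cox-5A in the pooled list. Neither is below 0.05, which 45 nuclear pooled peaks were. The other pooled promoter peaks of the set had q from 0.230 (cox-5B) to 0.961 (atp-2). The weakest nuclear reproducible peak had a signal of 41.96 and the strongest pooled nuclear peak left out 41.92. The nuclear reproducible peaks were thus the strongest of the pooled list by signal. That the peaks of cyc-2.1 and cox-5A stood above this edge follows from their being listed.

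**Figure D2:**
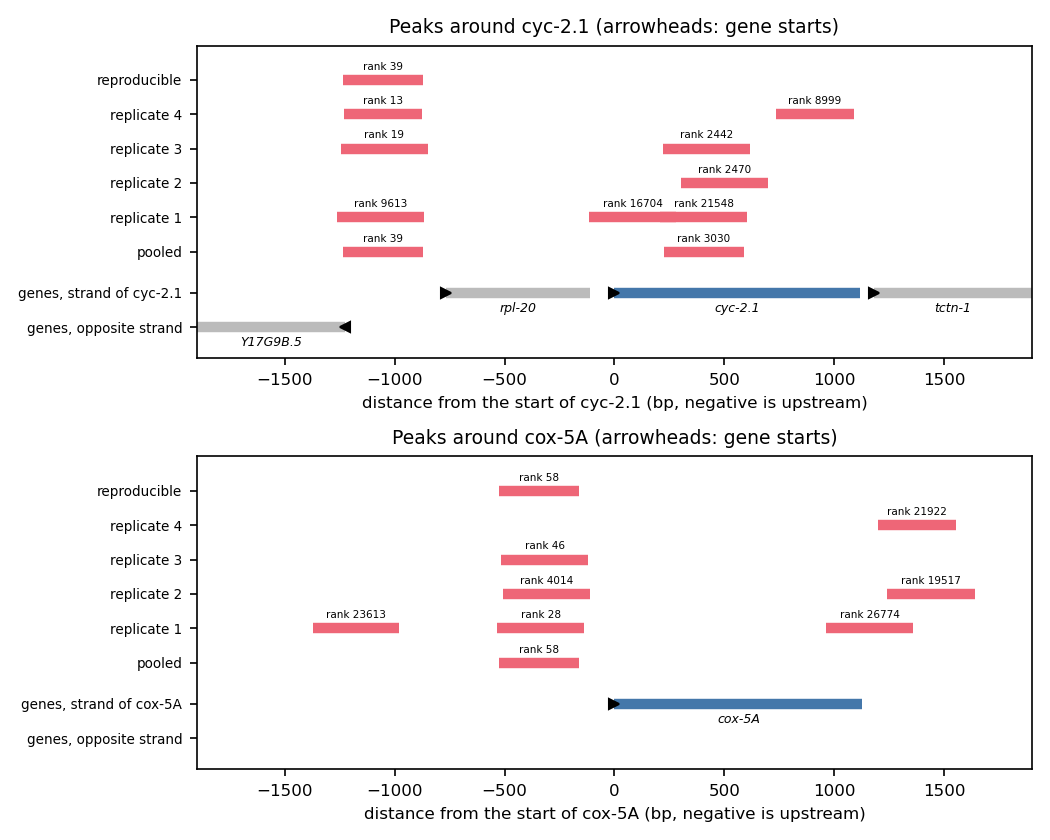
Peaks of each list (red, with the rank among the list's nuclear peaks) around cyc-2.1 (top) and cox-5A (bottom) by distance in bp from the gene's most upstream start, with the gene in blue, other protein-coding genes in grey and arrowheads at their starts. The summit of the reproducible peak of cyc-2.1 lies between the starts of Y17G9B.5 and rpl-20, and the peak has no counterpart in replicate 2, while that of cox-5A lies 342 bp before its own start and has none in replicate 4.

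Other subunits of complex IV ranged from a high pooled rank to no peak at all. cox-5B had a pooled signal of 36.8 and rank 183 (percentile 97.6), with a summit 13 bp downstream of its start. Its replicate percentiles were 78.7, 74.5, 57.5 and 81.8, and all 4 replicate lists had a peak overlapping the pooled one, at ranks 4512, 6677, 4418 and 3306. In replicate 2 a stronger peak 1989 bp upstream gave the percentile. The rank of 183 thus came from a place found in each replicate at a moderate rank. The same peak lies in the promoter window of tba-1, an alpha-tubulin gene on the opposite strand. cox-6A had a pooled percentile of 71.8 and replicate percentiles of 3.60, 61.5, 91.2 and 54.8, again with an overlapping peak in all 4 lists. A small nuclear RNA gene lay within 500 bp of its summit. cox-4, another subunit of the same complex, was the only 1 of the 41 genes with no promoter peak in any relaxed list.

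Complex III and ATP synthase genes had fewer high pooled ranks. ucr-1, a core subunit of complex III, had a pooled percentile of 83.4 and replicate percentiles of 98.1, 61.0, 74.3 and 74.9. Its pooled summit lay 848 bp upstream in an exon of ddx-15, whose start was nearer, and only replicate 1 had a peak there, so the other replicate values belong to other places in the window. ucr-2.1, the other core subunit, had a pooled percentile of 51.2, and its peak was present in replicate 4 alone, where it ranked 57. That summit is 9 bp from the start of nmat-1. cyc-1, cytochrome c1, had no pooled promoter peak and reached percentiles of 10.2 to 51.5 in 3 replicates. Of the ATP synthase genes, atp-1 (alpha subunit) had a pooled percentile of 76.6 and replicate percentiles of 11.0, 69.9, 32.1 and 80.4. Its pooled summit lay 97 bp downstream of the start, and the values of replicates 1 and 3 came from other places, 692 and 1308 bp upstream. atp-2, the catalytic beta subunit, had the lowest pooled percentile of the set, 1.43, but 94.2 in replicate 2 and 91.2 in replicate 4. The pooled summit lay 206 bp upstream and was overlapped in replicate 4 alone, while the peak of replicate 2 lay elsewhere, 915 bp upstream. atp-3, atp-4 and atp-5 had no pooled promoter peak, and each had one in replicates 1, 3 and 4, with percentiles from 38.8 to 93.2. ant-1.1, the ADP/ATP carrier, had 44.6 in the pooled list and 94.0 and 97.2 in replicates 2 and 4, with none in replicates 1 and 3.

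Of the 6 genes assigned here to the citric acid cycle, 4 had a pooled promoter peak, namely cts-1, mdh-1, sdha-1 and idh-1. cts-1 encodes citrate synthase, which makes the first intermediate of the cycle. Its pooled percentile was 90.7, and its replicate percentiles were 98.5, 78.7 and 91.3 in replicates 2, 3 and 4, with none in replicate 1. The pooled summit, however, lay 1749 bp upstream in an exon of rde-4, an RNA interference factor, and overlapped peaks of replicates 2 and 3 only. In replicates 3 and 4 the strongest peak of cts-1 lay 255 and 277 bp upstream of its start instead. mdh-1, the cytosolic malate dehydrogenase, had a pooled percentile of 87.6 and replicate percentiles of 87.4, 46.7 and 65.4 in replicates 1, 2 and 4. Its pooled summit lay 377 bp upstream, nearest to its own start, but also in the promoter windows of F46E10.3 and dpy-11. The value of replicate 2 came from another place, 1288 bp upstream, and its peak overlapping the pooled one ranked 29670.

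sdha-1 encodes the flavoprotein subunit of succinate dehydrogenase, which is also complex II of the respiratory chain. It had a pooled percentile of 87.4 and replicate percentiles of 87.0, 62.3, 52.2 and 45.4. A peak overlapped its pooled peak, 250 bp upstream, in all 4 lists, at ranks 2618, 16680, 5073 and 16662, so the percentiles of replicates 2 and 4 come from other places. A small nucleolar RNA gene lay within 500 bp of the summit. idh-1, an NADP-dependent isocitrate dehydrogenase, had a middling pooled percentile of 50.1 at a summit 108 bp upstream, also overlapped in all 4 lists. Its replicate percentiles were 33.9, 54.3, 92.3 and 89.7, high in replicates 3 and 4 and lower in the other two. The values of replicates 2 and 4 come from other places in its windows, and the peaks that overlapped the pooled one ranked 16904, 24362, 577 and 4138 in replicates 1 to 4. mdh-2, the mitochondrial malate dehydrogenase, and sdhb-1, the iron-sulfur subunit of succinate dehydrogenase, had no pooled promoter peak and a promoter peak in 2 replicates each.

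Glycolysis genes were covered unevenly, with peaks at 10 of 19 genes in the pooled list and at 16 of 19 in replicate 3. The shares over all genes in those lists were 29.2% and 31.4%. Of the early, ATP-consuming steps, hxk-1, a hexokinase, had a pooled percentile of 35.7 and hxk-2 and hxk-3 had no pooled promoter peak. gpi-1, glucose-6-phosphate isomerase, had a pooled percentile of 76.2 and replicate percentiles of 96.4, 78.6, 52.2 and 46.5. Its pooled summit lay 197 bp downstream of its start, at the edge of the window, and in replicate 1 the strongest peak lay 1994 bp upstream, at the other edge. Of the phosphofructokinases, which catalyse a committed step, pfk-1.2 had 21.6 and pfk-1.1 had no pooled promoter peak. aldo-2, an aldolase, had 88.5 in the pooled list and 90.5, 88.3 and 84.0 in replicates 2, 3 and 4. Those 3 replicate values stayed within a narrow range, although the peak of replicate 3 lay 1077 bp upstream and the others just downstream of the start. aldo-1, the other aldolase, had a pooled percentile of 63.3. tpi-1, triosephosphate isomerase, had 21.2 in the pooled list and 24.4, 23.1, 47.7 and 93.2 in the replicates, with the values of replicates 3 and 4 from other places, 528 and 1336 bp upstream.

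The gpd genes encode glyceraldehyde-3-phosphate dehydrogenase, and of the 4 only gpd-2 had a pooled promoter peak. Its percentile was 47.5 in the pooled list and 74.3, 54.5, 97.4 and 67.2 in the replicates. The pooled summit, 785 bp upstream of gpd-2, lies in an exon of mai-1 and 104 bp from the start of mai-1, the first gene of the operon that also holds gpd-2 and gpd-3. In replicate 3 that peak ranked 178 and was also the only promoter peak of gpd-3, so gpd-2 and gpd-3 share 1 value there. gpd-1 and gpd-4 had no pooled promoter peak and reached 29.3 and 86.8 in replicate 3, and gpd-4 reached 2.19 in replicate 4. The coding sequences of gpd-1 and gpd-4 were identical at 99.0% of aligned positions, and those of gpd-2 and gpd-3 at 97.4%, against 79.3% to 79.9% between the pairs. The placing of reads that match both copies was not given in the sources used, and whether the sequence under the upstream peaks is also duplicated was not measured.

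In the later steps of the pathway, ipgm-1 had the highest pooled percentile of the glycolysis genes. It encodes the cofactor-independent phosphoglycerate mutase, the form nematodes use in place of the cofactor-dependent enzyme of mammals. Its pooled signal was 32.9, rank 348 and percentile 95.4, at a summit 164 bp downstream of its start. Its percentiles in replicates 1, 2 and 3 were 73.1, 89.6 and 49.1. Replicate 4 had a peak that overlapped the pooled one at rank 15120, with its summit outside the promoter window. pyk-1, a pyruvate kinase, had 68.2 in the pooled list and 68.8, 72.0, 96.0 and 88.6 in the replicates, but only replicate 1 had a peak at the pooled place. pyk-2, enol-1 (enolase) and pgk-1 (phosphoglycerate kinase) had no pooled promoter peak and appeared in 2 or 3 replicates each, at percentiles from 12.2 to 89.5.

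ldh-1 encodes lactate dehydrogenase, which interconverts pyruvate and lactate. Its peak had a pooled signal of 30.5, rank 550 and percentile 93.0, in an intron of the gene. All 4 replicate lists had a peak overlapping it, at ranks 218, 6541, 10382 and 13154, or percentiles of 98.5, 70.6, 16.4 and 43.3. The place was shared, but only replicate 1 ranked it near the top. The phosphoenolpyruvate carboxykinases, which catalyse a key step of gluconeogenesis, both had pooled promoter peaks. pck-1 had 83.4 in the pooled list and 22.2, 99.1, 25.6 and 56.1 in the replicates, and pck-2 had 80.6 and then 72.4, 18.01, 78.2 and 87.5. Replicate 2 was the highest of the 4 for pck-1 and the lowest for pck-2, but the values of each gene came from different places. For pck-1 the pooled summit lay 1106 bp upstream, and the peaks of replicates 1 and 4 lay 1806 and 545 bp upstream. For pck-2 the pooled summit lay 76 bp downstream, and the peaks of replicates 2 and 4 lay 1184 and 1204 bp upstream. Replicate 2 had no peak at the pooled place of pck-2.

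**Figure D3:**
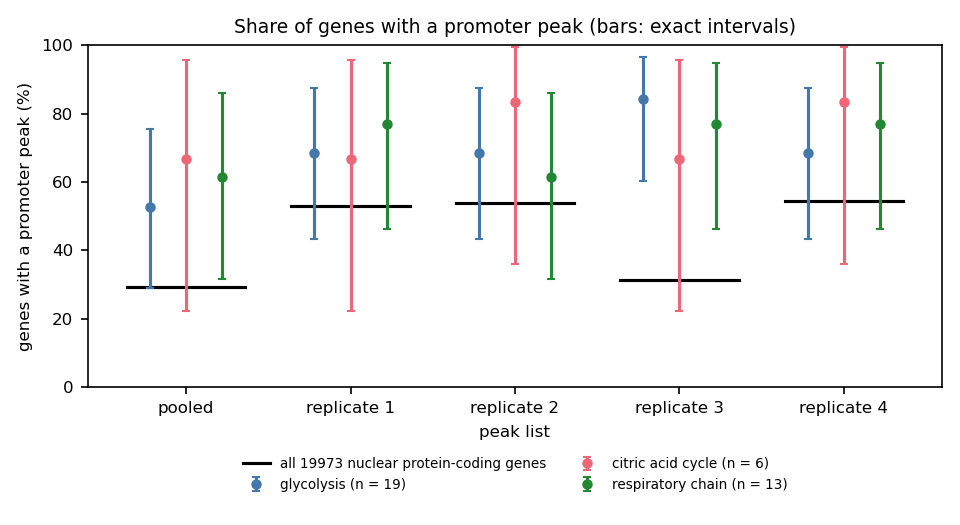
Share of glycolysis (n = 19), citric acid cycle (n = 6) and respiratory chain (n = 13) genes with a promoter peak in each relaxed list (points, with exact 95% intervals over genes), against the share of all 19973 nuclear protein-coding genes (black lines). All points lie above the line of their list, the intervals of the 3 classes overlap in every list, and glycolysis in replicate 3 stands farthest above its line.

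Compared by pathway, the ranges of the 3 classes over the replicate lists overlapped. In the pooled list 52.6% of glycolysis genes (28.9 to 75.6), 66.7% of citric acid cycle genes (22.3 to 95.7) and 61.5% of respiratory chain genes (31.6 to 86.1) had a promoter peak. The mean count over the 4 replicate lists was 13.75 ± 1.5 (SD, n = 4) of 19, 4.5 ± 0.577 of 6 and 9.5 ± 1 of 13. The share over all genes was 29.2% in the pooled list and 53.1%, 53.8%, 31.4% and 54.5% in replicates 1 to 4. The median percentile in the pooled list was 65.7 for glycolysis, 87.5 for the citric acid cycle and 80.0 for the respiratory chain, over the genes with a peak. Averaged over replicate lists, that median was 61.1 ± 9.96 for glycolysis, 67.5 ± 12.7 for the citric acid cycle and 72.6 ± 9.47 for the respiratory chain (SD, n = 4). The respiratory chain had the highest median of the 3 in replicates 2, 3 and 4, at 72.2, 71.2 and 85.0, and the lowest in replicate 1, at 62.0. The citric acid cycle was the highest in replicate 1, at 84.8, and the lowest in replicate 2, at 54.3. Its pooled median of 87.5 rests on 4 genes, among them the cytosolic mdh-1 (87.6) and the NADP-dependent idh-1 (50.1). Another, cts-1 (90.7), had its pooled summit in an exon of rde-4. The median thus describes the class as assigned here and not the enzymes of the mitochondrial cycle as such. Glycolysis had medians of 68.8, 65.4, 63.7 and 46.5 and was the lowest in replicates 3 and 4. No test was made between classes, because their genes were chosen with earlier results known and all share the same 4 libraries.

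The median over the 25 genes with a pooled promoter peak was a percentile of 76.6, with a range from 1.43 to 99.5, where the median of all genes with a peak is near 50 by construction. In the replicate lists the median was 68.8, 65.4, 67.8 and 67.2, a mean of 67.3 ± 1.45 (SD, n = 4), so the set as a whole was placed above the middle by a like amount in each replicate. Of the set, 12 genes (29.3%, 16.1 to 45.5) had one of the strongest 2000 nuclear pooled peaks in their promoter, against 6.21% of all genes. These were 3 of 19 glycolysis genes, both pck genes, 3 of 6 citric acid cycle genes and 4 of 13 respiratory chain genes.

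Recurrence between replicates was counted by place and by rank. Of the 41 genes, 14 (34.1%) had a pooled promoter peak overlapped in at least 3 replicate lists, against 10.1% of all genes. Among genes that had a pooled promoter peak, all 4 replicates overlapped it for 6 of 25 (24%), namely ipgm-1, ldh-1, idh-1, sdha-1, cox-5B and cox-6A, and for 7.64% over the genome. The pooled list was made from the same 4 replicates, so this overlap is not an independent check. For a pair of replicates, the strongest promoter peaks of a gene overlapped in 36.4% to 41.7% of the energy genes that had one in both, and in 34.3% to 41.4% of all such genes. Spearman's rho of signal between pairs of replicates ran from -0.34 to 0.27 over 22 to 24 energy genes and from 0.07 to 0.19 over all genes, so the ranks of single genes were little alike between replicates.

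Distances were taken to the nearest start of the gene whose window held the summit, so that of ldh-1 is 776 bp upstream of one start although another of its starts, whose window does not reach the summit, is 345 bp away. The median pooled summit was 377 bp upstream, against 759 bp for all genes with a pooled promoter peak. Within 500 bp of that start lay 14 of 25 summits (56%), against 38.9% over the genome. Of the 25, 8 were downstream of the start, a share not counted over all genes. For 19 of 25 (76%) the gene's own start was the nearest protein-coding one, against 66.5%, and the exceptions were gpd-2, pfk-1.2, cts-1, ucr-1, ucr-2.1 and cyc-2.1. The peak lay in the window of more than 1 gene for 9 of 25 (36%), against 37.1%. By chromosome, 9 of the 10 energy genes on III had a pooled promoter peak, against 32.9% of all genes there, and 2 of the 6 on II, against 27.5%. The remaining chromosomes had 7 of 12 (I, against 30.0%), 2 of 4 (IV, 28.4%), 2 of 4 (V, 26.6%) and 3 of 5 (X, 32.4%).

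**Figure D4:**
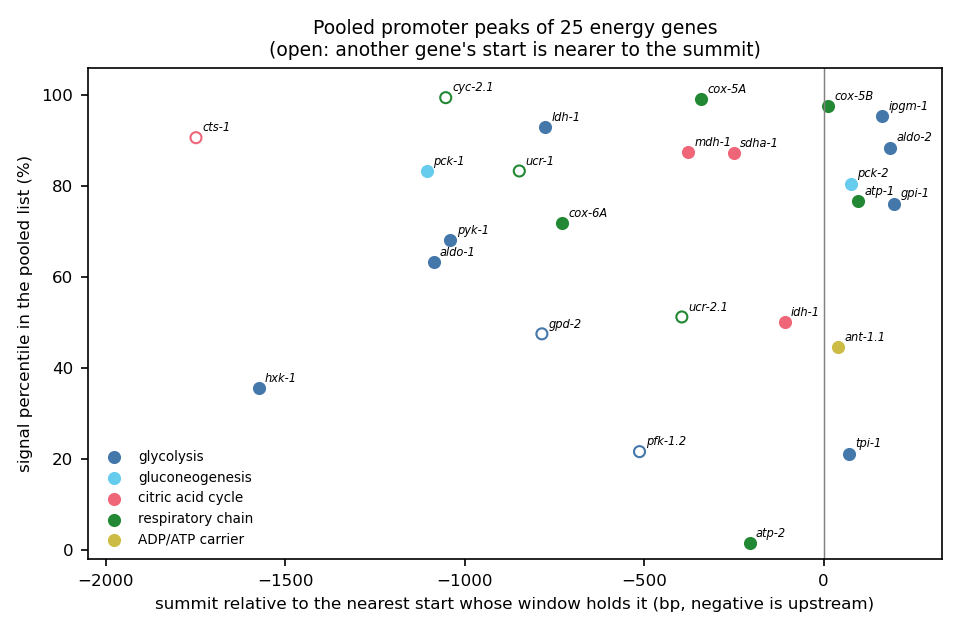
Pooled promoter peaks of 25 energy genes by distance of the summit from the gene's nearest transcript start whose window held it (bp, negative is upstream) and by percentile of signal in the pooled list, coloured by class, with open circles where another gene's start is nearer. The median distance is 377 bp upstream, and cyc-2.1 and cts-1, at 1053 and 1749 bp upstream, are high peaks nearer to another gene.

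The share of genes with a pooled promoter peak depended on how a promoter was defined, for the energy genes and for the genome alike. With 1000 bp upstream in place of 2000 bp, 21 of the 41 genes had a pooled promoter peak, against 19.2% of all genes, and with 500 bp 16 did, against 12.9%. Counting a peak only for the gene with the nearest start left 20, against 20.2%. Counting it only from the most upstream start of each gene left 21, against 26.2%. Glycolysis fell from 10 of 19 genes to 5 with 500 bp upstream and to 6 (31.6%) from the most upstream start. The windows of the energy genes had a longer mean than those of the genome, 2794 bp against 2574 bp, but the same median of 2201 bp. Of the 41 genes, 17 have more than 1 start, a share not counted over all genes.

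**Figure D5:**
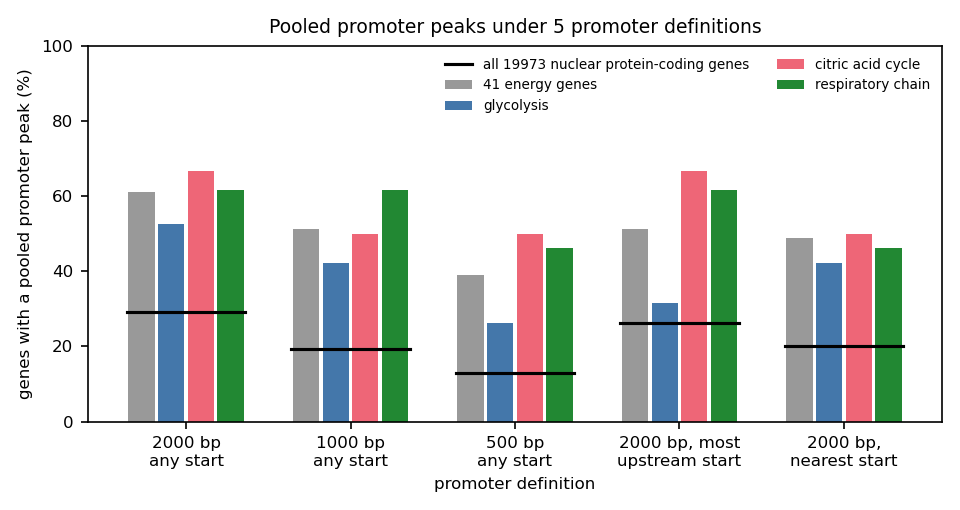
Percentage of genes with a pooled promoter peak under 5 promoter definitions, for the 41 energy genes (grey bars), 3 classes of them (coloured bars) and all 19973 nuclear protein-coding genes (black lines). The 41 genes stand above the line under each definition, and glycolysis comes closest to it, at 31.6% against 26.2%, when only the most upstream start counts.

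A wider list of energy genes outside the set was read in the same way. Of 86 such genes located by name, 40 (46.5%) had a pooled promoter peak, against 29.2% of all genes, with a median percentile of 42.3. None had a reproducible one, against 0.345% of all genes. Some pooled peaks were shared. ucr-11 and tre-1 were counted from the same peak, and mai-1 from the peak counted for gpd-2 of the set. By group, a pooled promoter peak was found at 5 of 16 complex I genes (31.3%) and 11 of 18 other citric acid cycle genes. It was found at 3 of 6 genes of pyruvate dehydrogenase and 9 of 18 other genes of complexes III and IV. The remaining groups had 4 of 11 other ATP synthase or carrier genes and 8 of 17 other sugar genes. In that order, the median percentiles were 61.6, 30.8, 86.3, 47.9, 42.5 and 36.2. Other citric acid cycle genes thus had a median of 30.8, against 87.5 for those of the set. Other genes of complexes III and IV had 47.9, against 80.0 for the respiratory chain class of the set. The highest single gene was pdhk-2, a pyruvate dehydrogenase kinase, with a pooled percentile of 95.4 and 69.7, 98.6 and 82.5 in replicates 1 to 3. sco-1, a copper chaperone of complex IV, had 95.0 in the pooled list and 80.4, 91.7, 97.7 and 33.7 in the replicates, with all 4 overlapping the pooled peak. cox-14 had 90.7 from the very peak counted for cts-1, and 98.5 and 34.7 in replicates 2 and 3. ndab-1, of the complex I list, had 89.1 in the pooled list and 90.8, 68.0 and 2.99 in replicates 1, 2 and 4. ogdh-1 (2-oxoglutarate dehydrogenase) had 87.9 and then 57.9, 14.2, 98.9 and 72.2.

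TGATAC and TCAGGTTTC are letters of SIX-type sites, and the other short sequences came from earlier results of these data. Within 50 bp of the pooled summit, TGATAC occurred on either strand at 2 of 25 energy gene peaks (pck-2 and cox-6A), against 3.38% of 4738 pooled promoter peaks. TCAGGTTTC occurred at 0 of 25, against 0.148%. CGTCTC occurred at 3 (ldh-1, pck-2 and idh-1), against 6.08%, and ACGCAG at 2 (pck-2 and idh-1), against 5.53%. The median GC content of these windows was 44.6% for the energy genes and 40.6% over pooled promoter peaks, and it was 39.6% for glycolysis, 48.5% for the citric acid cycle and 44.1% for the respiratory chain. Counts this small are a description only, and a match is not shown to be a bound site.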

How the data were processed

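ChIP-seq peak lists on the ce11 assembly were used, which is the same as WBcel235; lists on ce10 were not used. Per the README files deposited with the samples, relaxed lists of peaks with background were made for each replicate, a pooled relaxed list was made from all 4 replicates with a control, and a thresholded list was made from these by the irreproducible discovery rate. For the aligner, the peak caller, their versions and the handling of reads that map to several places, details were not given in the sources used here. Peak signal is a value deposited by the authors, made with a control, and served here for ranks within a list alone. The authors' q-value column was taken to hold −log10 of q, as is usual in narrowPeak files. Read depth is unknown.

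Genes came from Ensembl release 115 and sequence from the RefSeq genome of WBcel235. No peak or gene ended beyond a chromosome. Mitochondrial peaks were left out, and overlaps needed at least 1 bp. All 41 genes are accounted for. Full values are given for genes with a reproducible promoter peak, those with a promoter peak in all 4 replicates, the 3 highest of each class, and the 5 highest other pathway genes; other genes named with values were chosen after these were seen. The members and lists were chosen with earlier results of these data known, as were the short sequences searched at summits, so no test was run. Intervals are exact Clopper-Pearson at 95%. The steps were tested on simulated data. Python 3.11.15, SciPy 1.17.1, NumPy 2.4.6, Biopython 1.88 and Matplotlib 3.10.9 were used.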

Additional observations from a re-analysis of the deposited data

How the results depend on the processing

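Over 75 alternatives to 11 results, 45 stayed within 1.5 times a count or within the spread of a median, and 30 moved; those for single classes under other windows and lists were chosen after seeing the data. The count of genes with a promoter peak in every replicate, 14, was 5 with 1000 bp upstream (4.30% of all genes), 3 with 500 bp (1.84%), 8 from the most upstream start (7.44%), 7 by nearest start (6.02%), and 0 among the strongest 5000 nuclear peaks of each list (0.666% of all genes). Leaving out replicate 1, 2 or 4 gave 18, 19 and 19 of 41, against 14.2%, 14.4% and 13.8% of all genes. Without replicate 3 the count was 16 of 41, against 22.4%. The pooled count of 25 (29.2% of all genes) was 16 with 500 bp (12.9%) and 12 among the strongest 2000 peaks (6.21%). The reproducible count of 2 (0.345% of all genes) was 1 with 1000 bp, 500 bp or the nearest start, where cyc-2.1 dropped out. The share over all genes fell as well, to 0.230%, 0.140% and 0.225% in that order. The count of 14 overlapped in 3 or more lists was 2 with the strongest 5000 peaks (1.44%), and 7 to 9 with 1 replicate left out (3.31% to 6.26%), when all 3 remaining lists had to overlap. The median percentile of 76.6 was 73.2 from the most upstream start. With each gene's percentile averaged over the replicate lists in place of the pooled one, the median was 64.5 (48.3 for all genes). That replicate-based median, not the pooled one, was 61.6 to 67.2 with 1 replicate left out (48.2 to 48.8 for all genes). Glycolysis fell from 10 genes to 5 with 500 bp and 6 from the most upstream start, and its median of 65.7 was 77.2, 29.8 and, in replicate 4 alone, 46.5. The citric acid cycle median of 87.5 was 54.3, 65.4 and 65.4 in replicates 2, 3 and 4, and the respiratory chain median of 80.0 was 62.0 in replicate 1. The cause was not tested. No paired analysis was possible because there is 1 group. Depth is unknown, so a missing peak does not show that a gene was unbound, and the pooled and reproducible lists cannot be remade without a replicate.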
